A study of Mus musculus with 16 samples.

Results

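Podocytes are the specialised epithelial cells that wrap the glomerular capillaries and form the slit diaphragm of the kidney filter. Their identity rests on a small set of transcription factors, and 6 of these genes were followed here in isolated mouse glomeruli: Wt1, Tcf21, Lmx1b, Foxc1, Foxc2 and Dach1. They were chosen by name, and all 6 of them were found among the 25791 gene symbols of the expression table. All 6 also passed the filter on low values, at least 1 FPKM (fragments scaled by transcript length and by the fragments mapped in the library) in at least 7 libraries, which kept 13286 symbols.

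Every mouse was of the eNOS-/-//db/db genotype, in which endothelial nitric oxide synthase is lost and a leptin receptor mutation gives obesity and diabetes, and both alleles are carried in all cells rather than in one cell type. Nos3, which encodes that synthase, was nevertheless listed at 12.1 to 43.8 FPKM in the untreated and 15.4 to 36.7 FPKM in the RAAS-blocked libraries. A value per gene symbol does not show which exons were read, so it does not check the deletion. There were 9 libraries from untreated mice and 7 from RAAS-blocked mice, which drank lisinopril at 20 mg/day and losartan at 30 mg/day, as the labels write the doses without saying per animal or per body weight, from 10 to 12 weeks of age until 26 weeks. Lisinopril inhibits angiotensin-converting enzyme and losartan blocks the type 1 angiotensin receptor, so that together they block the renin-angiotensin-aldosterone system (RAAS). All mice ate a standard diet, and glomeruli were isolated magnetically from one kidney after perfusion with iron particles. No group without diabetes was among the 16 libraries, so every difference below is between diabetic mice.

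Wt1 is a zinc finger protein that binds the genes of many slit diaphragm and cytoskeletal proteins and is required both for kidney formation and for the mature podocyte. Tcf21 is a basic helix-loop-helix factor of kidney mesenchyme and podocytes, Lmx1b is the LIM homeodomain factor mutated in nail-patella syndrome, Foxc1 and Foxc2 are closely related forkhead factors, and Dach1 is a DNA-binding cofactor that works with Eya phosphatases and their homeodomain partners. Loss of any of several of them in mice disturbs foot process formation or the glomerular capillary tuft.

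Podocyte genes were abundant in all 16 libraries: the summed level of 10 structural podocyte genes (among them Nphs1, Synpo, Ptpro, Magi2, Kirrel, Plce1, Cdkn1c, Npnt and Thsd7a) was 1988 to 4621 FPKM in the untreated and 1592 to 4888 FPKM in the RAAS-blocked libraries. Podxl, a podocyte sialoprotein, was listed at 0 in every library and was not used. Genes of other cells were present too, with summed proximal tubule markers at 63.0 to 2079 FPKM in the untreated and 34.7 to 1203 FPKM in the RAAS-blocked libraries. Read totals are unknown for FPKM values, but the steps between low values put the relative depth of the libraries between 0.986 and 1.74 times that of untreated replicate 0, with RAAS-blocked replicate 4 the lowest, read from 53 genes against 119 or more in the others. That library also had the fewest symbols above 0, 16919 against 17993 to 18613 in the others. Untreated replicate 6 and RAAS-blocked replicate 6 stood apart by their high podocyte level, and the group differences and pairs of the 6 genes are given with and without them. The labels do not say library by library that each came from its own mouse, so the tests cover only the spread among libraries. The library identifiers form 1 unbroken run in each group, so a batch that followed them and the treatment cannot be told apart.

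The question asked of the 2 groups was whether blocking the RAAS moved the transcription factors. By limma on log2(FPKM + 1), 0 of the 6 genes had a Benjamini-Hochberg adjusted p under 0.05. The same threshold was reached by 2 of the 13286 genes in the whole fit, or 0.0151%, 1 of them higher and 1 lower under RAAS blockade (0.00753% each). None of the 6 had an unadjusted limma p or an exact permutation p under 0.05 either, while 814 of all genes tested, or 6.13%, had such an unadjusted p, and 3.42% had it with a lower level. The mean log2 level was lower in RAAS-blocked libraries for 5 of the 6 and higher for Foxc1, and the median difference over the 6 was -0.28 on the log2 scale against -0.02 over all genes tested, of which 55.3% were lower. The 2 groups overlapped for each of the 6 genes, and only 0.0602% of all genes tested had groups that did not overlap. The replicate 6 libraries moved the sizes: without untreated replicate 6 the difference was -0.14 for Wt1, -0.04 for Tcf21, -0.29 for Lmx1b, 0.15 for Foxc1, -0.19 for Foxc2 and -0.19 for Dach1. Without RAAS-blocked replicate 6 it was -0.44 for Wt1, -0.27 for Tcf21, -0.57 for Lmx1b, 0.04 for Foxc1, -0.42 for Foxc2 and -0.32 for Dach1. In bulk RNA of this kind, fewer podocytes and less RNA per podocyte cannot be told apart.

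**Figure D1:**
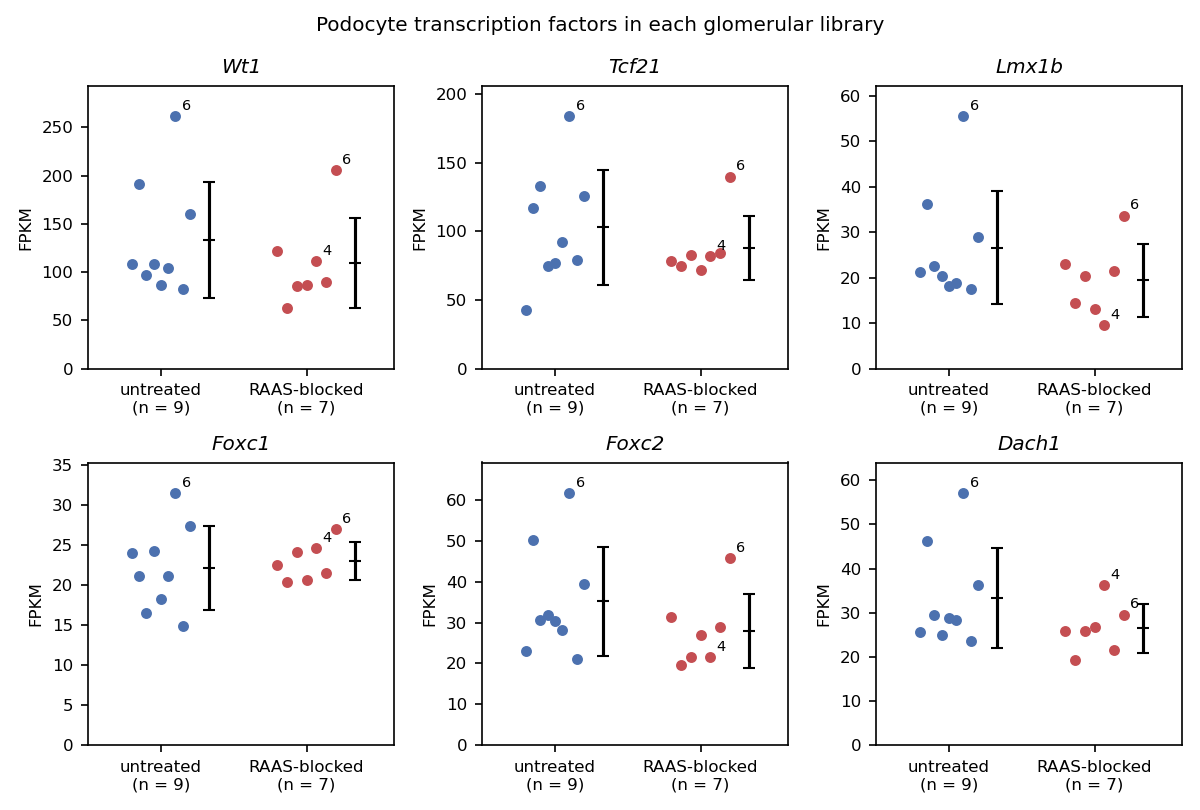
FPKM of Wt1, Tcf21, Lmx1b, Foxc1, Foxc2 and Dach1 in each library, with untreated (n = 9) and RAAS-blocked (n = 7) libraries as points and the mean with its SD as a bar beside them; the numbers mark replicates 6 and RAAS-blocked replicate 4. The groups overlap in all 6 panels, and untreated replicate 6 is the highest of the 16 points in each.

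Wt1 was the most abundant of the set. Its level ran from 82.2 FPKM through a median of 108 to 262 in the untreated libraries and from 62.8 through 90.2 to 206 in the RAAS-blocked libraries. The 2 highest values were those of untreated replicate 6 and RAAS-blocked replicate 6, and the groups overlapped over most of their range. The means were 133 ± 59.9 (SD, n = 9) and 109 ± 46.7 (SD, n = 7) FPKM, a log2 difference of -0.27 ± 0.26 (SE, limma adjusted p = 0.921), with a 95% interval from -0.83 to 0.28.

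Tcf21 came next. It had a lowest, median and highest value of 43.0, 92.5 and 184 FPKM in the untreated libraries and of 72.0, 81.9 and 140 FPKM in the RAAS-blocked libraries. Its lowest value of all was in untreated replicate 0, and 6 of the 7 RAAS-blocked libraries lay close together, between 72.0 and 84.2 FPKM. The means of 103 ± 41.8 (SD, n = 9) and 87.7 ± 23.5 (SD, n = 7) FPKM differed by -0.16 ± 0.24 on the log2 scale (SE, limma adjusted p = 0.944), and the 95% interval ran from -0.66 to 0.35.

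Lmx1b had the widest spread of the set, 5.81-fold from the lowest to the highest library. Its values were 17.4, 21.2 and 55.5 FPKM (lowest, median and highest) without treatment and 9.54, 20.4 and 33.6 FPKM under RAAS blockade. In 3 of the 7 RAAS-blocked libraries Lmx1b lay below all untreated ones, at 9.54, 13.2 and 14.4 FPKM, whereas 2 untreated libraries lay above all RAAS-blocked ones. The means were 26.6 ± 12.4 (SD, n = 9) and 19.4 ± 7.96 (SD, n = 7) FPKM. Of the 6 genes Lmx1b had the largest log2 difference, -0.43 ± 0.26 (SE, limma adjusted p = 0.856, exact permutation p = 0.144), with a 95% interval from -0.98 to 0.12.

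The 2 forkhead genes differed in how much they varied. Foxc2 ranged from 21.0 through 30.7 to 61.9 FPKM in the untreated and from 19.6 through 27.0 to 45.9 FPKM in the RAAS-blocked libraries. Foxc1 ranged from 14.9 through 21.2 to 31.6 FPKM and from 20.5 through 22.6 to 27.1 FPKM in the same groups. Foxc1 was thus the steadiest of the 6, with a 2.12-fold range over the 16 libraries and a coefficient of variation of 18.6%, against 3.15-fold and 36.9% for Foxc2. All 7 RAAS-blocked values of Foxc1 fell inside the untreated range. The log2 difference was -0.30 ± 0.22 for Foxc2 (SE, limma adjusted p = 0.890), between means of 35.2 ± 13.3 (SD, n = 9) and 28.0 ± 9.01 (SD, n = 7) FPKM. For Foxc1 it was 0.08 ± 0.13 (SE, limma adjusted p = 0.947), between means of 22.1 ± 5.31 (SD, n = 9) and 23.0 ± 2.42 (SD, n = 7) FPKM. The 95% intervals ran from -0.75 to 0.16 for Foxc2 and from -0.19 to 0.35 for Foxc1.

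Dach1 spanned 23.7, 28.7 and 57.2 FPKM (lowest, median and highest) in the untreated libraries and 19.2, 25.8 and 36.3 FPKM in the RAAS-blocked libraries. RAAS-blocked replicates 1 and 5 lay below every untreated library, and untreated replicates 1 and 6 lay above every RAAS-blocked one. The means were 33.4 ± 11.3 (SD, n = 9) and 26.4 ± 5.53 (SD, n = 7) FPKM, a log2 difference of -0.29 ± 0.18 (SE, limma adjusted p = 0.857, exact permutation p = 0.145), with a 95% interval from -0.66 to 0.08.

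**Figure D2:**
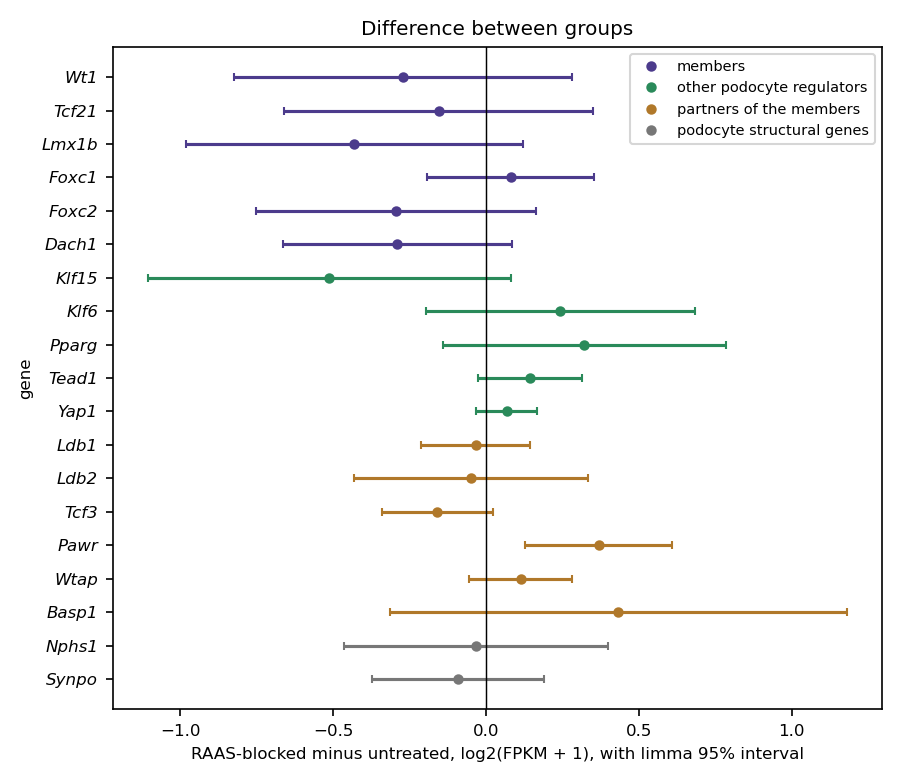
Log2 difference in log2(FPKM + 1), RAAS-blocked minus untreated, for the 6 transcription factors and the other named genes, with 95% confidence intervals from limma. The interval of each of the 6 transcription factors includes 0.

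Because FPKM is scaled by transcript length, the levels of the 6 genes can also be set in order within a library. Wt1 exceeded Tcf21 in 14 of the 16 libraries, and both exceeded the other 4 genes in all 16. The ratio of Wt1 to Tcf21 ran from 0.730 in untreated replicate 2 to 2.52 in untreated replicate 0, with a median of 1.24. Foxc2 exceeded Lmx1b in all 16 libraries and Dach1 in 11 of 16, so that neither Foxc2 nor Dach1 stood above the other beyond the spread. Lmx1b exceeded Foxc1 in 7 of 16, and these neighbours at the bottom could not be separated either.

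The libraries kept a similar order from gene to gene. Untreated replicate 6 had the highest level of all 16 libraries for each of the 6 genes, and RAAS-blocked replicate 6 ranked between 2nd and 5th. RAAS-blocked replicate 1 was the lowest library for Wt1, Foxc2 and Dach1. Covariation was measured as Pearson's r and Spearman's rho of log2(FPKM + 1) over the 16 libraries after each group's mean had been subtracted, with p from 100000 shuffles within groups, adjusted over the 15 pairs.

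All 15 pairs had an r above 0, and 14 of them had an adjusted permutation p under 0.05 by r and 10 by rho. The mean r was 0.69. Against all 13285 other tested genes, the median r of each of the 6 lay between -0.03 (Wt1) and 0.03 (Foxc2). The upper quartile lay between 0.23 (Foxc1) and 0.34 (Foxc2). How many of all gene pairs would pass was not counted. The tightest pair was Wt1 with Foxc2 (r = 0.90, adjusted permutation p = 0.000675, rho = 0.79, adjusted permutation p = 0.00638). Lmx1b with Foxc2 was nearly as tight (r = 0.86, adjusted permutation p = 0.000675, rho = 0.75, adjusted permutation p = 0.00855). Wt1 with Dach1 reached r = 0.82 (adjusted permutation p = 0.00176) and rho = 0.73 (adjusted permutation p = 0.00896). The pair that missed the threshold was Tcf21 with Foxc1 (r = 0.35, adjusted permutation p = 0.287, rho = 0.31, adjusted permutation p = 0.298). Without untreated replicate 0 it passed at r = 0.59 (adjusted permutation p = 0.0482), so that all 15 did, and without untreated replicate 6 its r was 0.07. The 2 forkhead genes themselves gave r = 0.59 (adjusted permutation p = 0.031) and rho = 0.50, which missed the threshold (adjusted permutation p = 0.0796).

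The pairs were looser without the 2 libraries highest in podocyte genes. Without both replicate 6 libraries, the mean r was 0.46 and 3 of 15 pairs passed: Wt1 with Foxc2 (r = 0.78), Wt1 with Dach1 (r = 0.81) and Lmx1b with Foxc2. Without untreated replicate 6 alone, 6 of 15 pairs passed, and without RAAS-blocked replicate 6 alone, 9 of 15. With the 2 libraries farthest from the median of the first gene of each pair left out, r ranged from 0.25 for Foxc1 with Foxc2 to 0.83 for Lmx1b with Foxc2. In the 9 untreated libraries alone the mean r was 0.77 and 10 pairs passed the adjusted permutation p. In the 7 RAAS-blocked libraries alone it was 0.58 and none passed; whether the 2 groups differ in covariation was not tested.

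**Figure D3:**
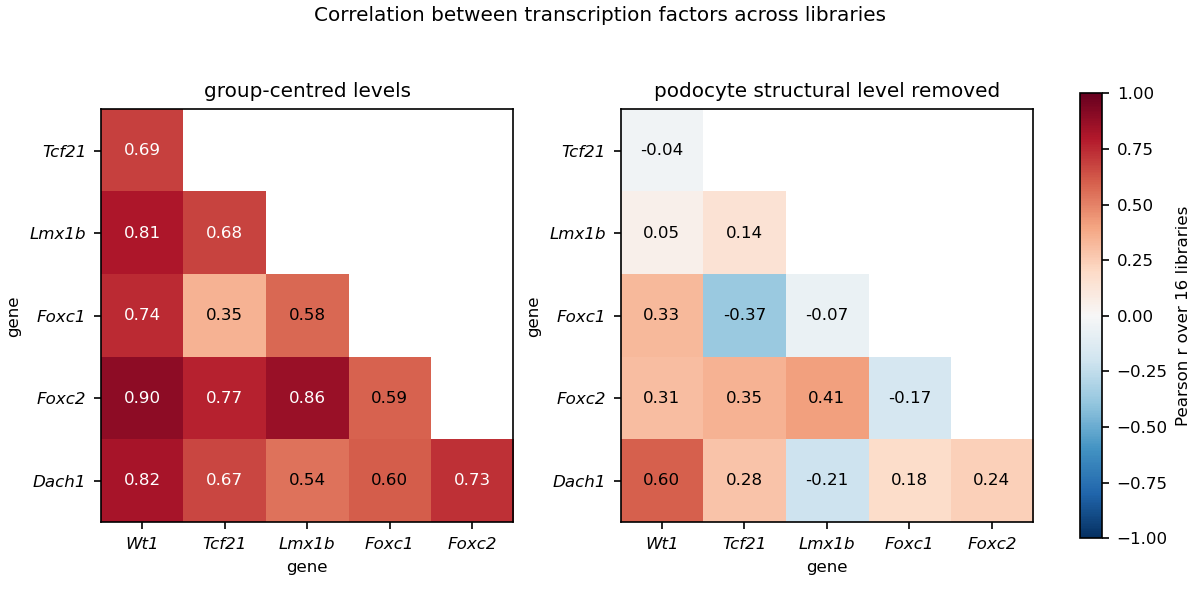
Pearson's r of group-centred log2(FPKM + 1) for the 15 pairs of transcription factors, over all 16 libraries and again with the level of the structural podocyte genes removed. The mean r is 0.69 in the first case and 0.14 in the second.

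Lmx1b and Dach1 gave a relation that hung on single libraries. Their r was 0.54 (adjusted permutation p = 0.0373) with a rho of 0.46 (adjusted permutation p = 0.0814), but it was 0.96 in the 9 untreated libraries and -0.21 in the 7 RAAS-blocked ones. In RAAS-blocked replicate 4 Lmx1b had its lowest value of all, 9.54 FPKM, while Dach1 stood at 36.3 FPKM, the highest of the RAAS-blocked group. The ratio of Lmx1b to Dach1 was therefore 0.263 there, against up to 1.14 in RAAS-blocked replicate 6, and the ratio of Wt1 to Lmx1b reached 11.7 where its median was 5.18. Without that library the r of Lmx1b with Dach1 was 0.85 (adjusted permutation p = 0.00113). Without untreated replicate 6, the highest library for both genes, it was 0.28 and no longer passed (adjusted permutation p = 0.351). Leaving out RAAS-blocked replicate 4 also moved another pair: the r of Wt1 with Lmx1b was 0.94 in place of 0.81. RAAS-blocked replicate 4 is the library of lowest relative depth with the fewest symbols above 0, and the part of these in the result was not tested.

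**Figure D4:**
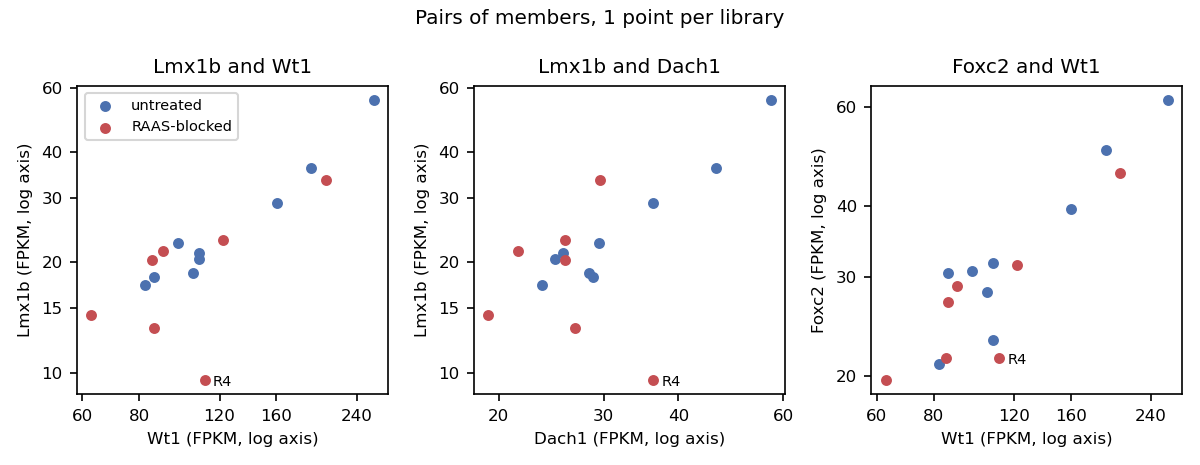
Lmx1b against Wt1, Lmx1b against Dach1 and Foxc2 against Wt1 (FPKM on log axes), 1 point per library, coloured by group. RAAS-blocked replicate 4, marked R4, lies below the other points in both Lmx1b panels, at 9.54 FPKM.

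The DNA just before the start sites is shown for the 4 members with an entry in the RefSeq promoter table (mouse build GRCm38.p6), 250 bases each, 5′ to 3′ on the gene's strand. Whether these sequences have a part in the covariation was not tested. The windows are chr10:22820144-22820393 (minus strand) for Tcf21, chr2:33641099-33641348 (minus strand) for Lmx1b, chr13:31806396-31806645 (plus strand) for Foxc1 and chr14:98169766-98170015 (minus strand) for Dach1. Capitals mark every match to 6 short motifs searched on both strands.
Tcf21: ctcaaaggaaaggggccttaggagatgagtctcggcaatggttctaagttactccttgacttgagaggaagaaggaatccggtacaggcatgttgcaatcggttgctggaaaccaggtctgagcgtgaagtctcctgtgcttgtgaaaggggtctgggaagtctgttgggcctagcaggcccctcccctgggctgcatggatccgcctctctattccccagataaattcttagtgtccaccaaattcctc
Lmx1b: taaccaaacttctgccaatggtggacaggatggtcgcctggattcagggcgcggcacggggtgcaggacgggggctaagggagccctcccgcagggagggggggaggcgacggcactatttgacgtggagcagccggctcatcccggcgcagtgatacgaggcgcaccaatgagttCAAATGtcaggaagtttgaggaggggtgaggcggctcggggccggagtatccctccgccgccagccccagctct
Foxc1: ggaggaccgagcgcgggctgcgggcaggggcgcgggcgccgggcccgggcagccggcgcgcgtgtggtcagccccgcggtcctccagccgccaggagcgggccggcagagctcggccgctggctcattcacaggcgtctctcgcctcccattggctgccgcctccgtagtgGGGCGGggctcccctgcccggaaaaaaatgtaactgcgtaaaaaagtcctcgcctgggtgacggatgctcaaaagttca
Dach1: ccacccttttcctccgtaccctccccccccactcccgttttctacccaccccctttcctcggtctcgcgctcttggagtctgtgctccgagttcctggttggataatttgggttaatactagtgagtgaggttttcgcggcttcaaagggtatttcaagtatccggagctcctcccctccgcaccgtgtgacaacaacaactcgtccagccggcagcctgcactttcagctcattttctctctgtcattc
The motifs were the E-box CANNTG, which helix-loop-helix factors such as Tcf21 bind, the forkhead core GTAAACA, the homeodomain core TAATTA, the EGR-type element GCGTGGGAG bound by Wt1, the TATA element TATAAA and the GC box GGGCGG. Only 2 matches were found, and they did not overlap: an E-box in Lmx1b 74 bases before the RefSeq start and a GC box in Foxc1 79 bases before it. The bases after the start were found in a GENCODE M21 transcript of the same gene for Tcf21, Foxc1 and Dach1 but not for Lmx1b, so the start of Lmx1b is less certain, and the starts used for the FPKM table are not known here. Among the 32817 promoter windows of the same length in the table, 66.2% held an E-box, 32.7% a GC box, 12.4% a TATA element, 4.85% the homeodomain core, 3.16% the forkhead core and 0.405% the EGR-type element. The windows of Foxc1 and Lmx1b were rich in G and C, at 70.8% and 65.2%, against 54.8% for Dach1 and 52.4% for Tcf21, the last being equal to the median of all windows. Wt1 and Foxc2 are named only.

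How far the transcription factors followed the podocyte content of a library was measured against the mean log2(FPKM + 1) of the 10 structural genes. This level did not separate the groups, at 6.55 to 7.74 in the untreated and 6.41 to 7.73 in the RAAS-blocked libraries (exact permutation p = 0.704). Each of the 6 genes followed it, but the share of all genes tested that did so was not counted. Wt1 was the closest (r = 0.94, adjusted permutation p = 0.00012, rho = 0.76, adjusted permutation p = 0.008), with Foxc2 next to it (r = 0.91, adjusted permutation p = 0.00012, rho = 0.84, adjusted permutation p = 0.00204). Foxc1 was the loosest by r (r = 0.71, adjusted permutation p = 0.0021, rho = 0.65, adjusted permutation p = 0.0252). Lmx1b, Tcf21 and Dach1 lay between them at r = 0.85, 0.74 and 0.73, with rho of 0.70, 0.61 and 0.78 and every adjusted permutation p at or below 0.0338. These p-values are adjusted over 12 relations, the 6 with this level and the 6 with the proximal tubule level. With both replicate 6 libraries left out, the 6 values of r ran from 0.47 for Tcf21 to 0.86 for Wt1.

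**Figure D5:**
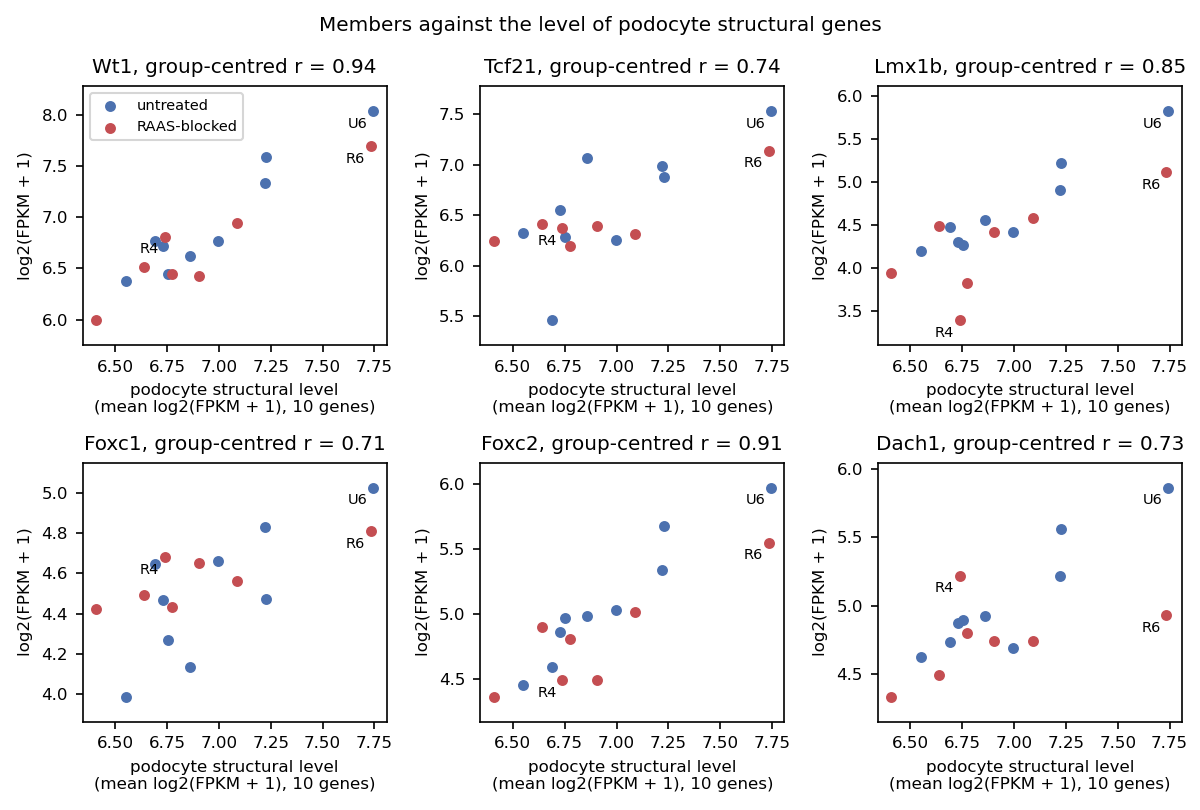
Log2(FPKM + 1) of each transcription factor against the mean log2(FPKM + 1) of the 10 structural podocyte genes, 1 point per library, coloured by group. Values of r run from 0.71 for Foxc1 to 0.94 for Wt1, and the 2 replicate 6 libraries lie at the right of every panel.

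When the level of the structural genes was removed from each transcription factor by regression, 0 of the 15 pairs kept an adjusted permutation p under 0.05 and the mean r was 0.14, with 10 of 15 above 0. The highest remaining value was Wt1 with Dach1, at 0.60, and the lowest was Tcf21 with Foxc1, at -0.37. For most of the genes, the level relative to the structural genes also varied less than the level itself: the SD over the 16 libraries was 0.24 against 0.55 for Wt1, 0.22 against 0.47 for Foxc2 and 0.34 against 0.58 for Lmx1b, on the log2 scale. For Foxc1 it did not shrink (0.28 against 0.26).

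Relative to the structural genes, Lmx1b differed between the groups by -0.36 on the log2 scale (exact permutation p = 0.0271) and Foxc2 by -0.22 (exact permutation p = 0.0374), both lower under RAAS blockade. The same quantity for Wt1 differed by -0.20 (exact permutation p = 0.105), and the other 3 had exact permutation p-values from 0.158 to 0.660. These 6 p-values are not corrected for one another, and the share of all genes with such a p on this measure was not counted. RAAS-blocked replicate 4, the lowest library for Lmx1b at 9.54 FPKM, is included, and no value without it is given here. In the fit over all genes with the structural level as a covariate, neither gene passed, with Lmx1b at -0.34 ± 0.15 (SE, limma adjusted p = 0.545) and Foxc2 at -0.22 ± 0.10 (SE, limma adjusted p = 0.596). Of all 13286 genes tested, 8 passed in that fit.

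The levels of other kidney cells were set against the 6 genes in the same way. For proximal tubule markers, r ran from -0.49 for Foxc1 to -0.04 for Tcf21, and no r passed, although Foxc1 did by rho (rho = -0.62, adjusted permutation p = 0.0422). Leaving out 1 library brought 2 of them past the threshold, Foxc1 at r = -0.72 without untreated replicate 7 (adjusted permutation p = 0.00917) and Wt1 at r = -0.60 without untreated replicate 1 (adjusted permutation p = 0.0413, r = -0.37 with it). Among the 42 relations with 7 further cell types, 1 passed. It was Foxc2 with 10 endothelial markers (r = -0.86, adjusted permutation p = 0.0042, rho = -0.81, adjusted permutation p = 0.0223). Leaving out the pair of libraries most distant from the median endothelial level gave -0.81. The other 5 genes also had negative r with the endothelial level, from -0.68 for Lmx1b to -0.38 for Foxc1. Summed endothelial markers reached 2047 to 3912 FPKM in the untreated and 1747 to 3042 FPKM in the RAAS-blocked libraries. With the endothelial level removed, the mean r of the 15 pairs was 0.55 and 6 pairs passed, a setting added after the data had been seen. The fibroblast level was higher in RAAS-blocked libraries, at 2.87 to 3.47 against 1.82 to 2.96 (exact permutation p = 0.00149), with summed markers of 28.0 to 46.7 against 13.2 to 35.6 FPKM. Its part in the group differences was not tested.

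Wt1 and Lmx1b have well known target genes in podocytes. Wt1 was compared with 9 reported targets, among them Nphs1 (nephrin), Synpo, Magi2, Plce1, Nes, Sulf1 and Scel. All 9 passed by r and 6 of 9 by rho, and 5 of the 9 are also among the structural podocyte genes. Of all 13285 other genes tested, 6.01% had an r with Wt1 at or above that of the lowest of the 9. Magi2, a scaffold protein of the slit diaphragm, gave r = 0.88 (adjusted permutation p = 0.00052, rho = 0.71, adjusted permutation p = 0.0245), and Sulf1 gave 0.66 (adjusted permutation p = 0.0102, rho = 0.56, adjusted permutation p = 0.0501). Without the 2 libraries farthest from the median Wt1 level, r was 0.72 for Magi2 and 0.30 for Sulf1. Lmx1b was compared with 4 reported targets, and all 4 passed by r while 1 of 4 passed by rho. An r with Lmx1b at or above the lowest of these was held by 6.29% of all genes tested. Among them were Col4a4 (r = 0.78) and Col4a3 (r = 0.71), which encode chains of the basement membrane collagen, and the slit diaphragm adaptor Cd2ap (r = 0.62). P-values are adjusted over the 13 relations.

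The factor said to act on a target was not always the one that followed it best. Over the 9 Wt1 targets the mean r was 0.80 with Wt1, 0.77 with Foxc2 and 0.70 with Lmx1b. Over the 4 Lmx1b targets it was 0.88 with Wt1, 0.79 with Foxc2, 0.76 with Dach1 and 0.69 with Lmx1b. These means are descriptions, since the genes share the libraries and the podocyte level. Cd2ap was closest to Dach1 (r = 0.97), and with Lmx1b it reached 0.96 in the untreated but 0.10 in the RAAS-blocked libraries. The latter include RAAS-blocked replicate 4, the lowest library for Lmx1b at 9.54 FPKM, and no value for that group without it is given here. Whether the groups differ in this relation was not tested.

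None of the targets passed the test between groups. Among the 9 Wt1 targets, 3 had higher and 6 lower means under RAAS blockade, with a median log2 difference of -0.09. All 4 Lmx1b targets had lower means, with a median of -0.12. Nphs1 stood at 255 ± 73.8 (SD, n = 9) and 257 ± 105 (SD, n = 7) FPKM, a log2 difference of -0.03 ± 0.20 (SE, limma adjusted p = 0.989), whose sign turned to 0.01 after quantile normalization and to 0.04 with the structural level as a covariate.

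The RNA of genes encoding proteins that bind the 6 factors was examined as well, and 13 of 17 listed genes passed the filter. None of the 13 passed by adjusted p. There were 4 with higher and 9 with lower means, and the median log2 difference was -0.03. The clearest was Pawr, a Wt1-binding protein also known as Par-4. It had a lowest, median and highest value of 17.9, 22.3 and 30.6 FPKM in the untreated and 24.2, 30.8 and 35.5 FPKM in the RAAS-blocked libraries, with overlap between the groups. Its log2 difference of 0.37 ± 0.11 had an unadjusted limma p of 0.00504 and a limma adjusted p of 0.639. Basp1, a corepressor of Wt1, ran from 1.43 through a median of 4.54 to 18.5 FPKM in the untreated and from 1.90 through 7.75 to 10.1 FPKM in the RAAS-blocked libraries (log2 difference 0.43 ± 0.35, SE, limma adjusted p = 0.901). Ldb1, the partner through which LIM homeodomain factors form complexes, was at 74.2 ± 9.84 (SD, n = 9) and 72.1 ± 6.53 (SD, n = 7) FPKM. The partners went in both directions with the factors: single values of r ran from -0.65 to 0.88, and the mean over the 13 from -0.16 for Foxc2 to 0.12 for Foxc1. The highest single value was 0.88, for Dach1 with Eya4, of the family of Dach1 partners, which was picked after its values were seen. Eya4 was low, at 1.62 to 4.77 FPKM over all libraries. Its r was 0.83 with Wt1, 0.80 with Foxc1, 0.69 with Foxc2, 0.55 with Tcf21 and 0.51 with Lmx1b. The other tested gene of that family, Eya3, went the other way, with r of -0.43 with Dach1 and negative r with every other factor. A relation of Dach1 with this family was not tested.

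Of 20 other transcription regulators known from podocytes, 19 were tested and none passed. Means were higher for 8 and lower for 11 of them, and the median log2 difference was -0.05. Klf15, a glucocorticoid-responsive factor, was at 14.0 ± 7.02 (SD, n = 9) and 9.13 ± 3.48 (SD, n = 7) FPKM, a log2 difference of -0.51 ± 0.28 (SE, limma adjusted p = 0.830). The forkhead genes Foxd1 and Foxd2 followed the 6 closely, with r from 0.70 (Foxc1) to 0.95 (Wt1) for Foxd1 and from 0.61 (Foxc1) to 0.95 (Foxc2) for Foxd2. Nr3c1, the glucocorticoid receptor, went the other way with all 6, from -0.24 with Foxc1 to -0.79 with Foxc2. Klf15 followed none of them, with r between -0.12 and 0.27. These r values are descriptions over 16 libraries.

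For each transcription factor, the 5 genes of most similar pattern were found by the same r among the other tested genes. Predicted and unnamed symbols and small RNAs were left out of these lists. Wt1 was nearest to Cbara1 (r = 0.98), Eif3m, Zfp385b and Vamp2 (each 0.97) and Tmem150c (0.96). Foxc2 was nearest to Ppfibp2 (0.98), Kank1 (0.97), Hs3st6 and Epn3 (each 0.96) and Foxd2 (0.95). Dach1 was nearest to Cd2ap (0.97), followed by Derl2, Mocs2 and Thsd7a (each 0.93) and Fnbp1l (0.92). For Lmx1b the list was Hs3st6, Dagla and Tsc2 (each 0.94), then Osbpl5 and Prr5 (each 0.92), so that Hs3st6 stood in the lists of both Lmx1b and Foxc2. The nearest genes of Tcf21 were Fam3a (0.91), Mgat4a and Sh2d4a (each 0.90) and Atp8b1 and Ddn (each 0.89), and those of Foxc1 were Mertk (0.87), Col4a3, Loxl2 and Fgfr2 (each 0.85) and Tspan2 (0.84). No member was among the 5 nearest genes of another. The closest was Foxc2, ranked 48th for Lmx1b, and the farthest was Foxc1, ranked 2546th for Tcf21. The number of genes with r over 0.9 was 87 for Wt1, 48 for Foxc2, 16 for Lmx1b, 10 for Dach1, 1 for Tcf21 and 0 for Foxc1.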

How the data were processed

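RNA from magnetically isolated glomeruli of 9 untreated and 7 RAAS-blocked mice was sequenced from poly(A) libraries (Illumina TruSeq mRNA v2), with RNA quality of at least 8, per the labels' protocols. The deposited values are FPKM per gene symbol, made by the authors. Tools listed, per the submitters' processing notes, are Cuffdiff 2.2.1, Cufflinks, TopHat2 2.0.8, CASAVA 1.8.2 and FastQC, without their roles. The build, annotation and strand setting behind the table were not given in the sources used here.

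Values were used as log2(FPKM + 1). The 13286 of 25791 symbols that reached 1 FPKM in 7 or more libraries were tested with limma 3.58.1 in R 4.3.3 (trend and robust, Benjamini-Hochberg over all of them), and 4177 symbols were listed at 0 throughout. Because 1 is added to each value, differences of genes with low FPKM come out too small. Single values were compared by the exact two-sided permutation test over all 11440 splits. Correlations used values centred by group, with two-sided permutation p from 100000 shuffles within groups (smallest possible 1e-05), in Python 3.11.15 with NumPy 2.4.6, SciPy 1.17.1 and pandas 2.3.3. The linear model was tested on simulated data. Relative depth came from the steps between values under 0.03 FPKM, of which 67.3% to 82.4% lay on a step within 0.05 log2, so whole reads were not recovered and no count test was run. Levels of a cell type are means of log2(FPKM + 1) over its markers.

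The members, lists and tests were chosen with earlier results of these data known. Named genes were the 6 members, in the lists of partners and of other regulators the 4 tested genes of lowest p and the 3 of highest mean, with Ldb1, then Nphs1, Podxl, Synpo and Slc34a1, and the 5 named genes with the highest r to each member. Some genes that the rule takes are in the counts and levels but not reported singly here. Foxd1, Foxd2, Nr3c1, Eya3, Eya4 and, among the targets, Magi2, Sulf1, Col4a3, Col4a4 and Cd2ap were named after their values were seen. Promoter sequences are those of RefSeq.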

Additional observations from a re-analysis of the deposited data

Results flagged for a closer look

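In groups of 9 and 7 libraries, a highest or lowest value set apart from its neighbours by more than Dixon's 95% critical value (0.493 and 0.568 of the range) was looked for in 98 gene and group combinations, and 20 were found. Chance gives about 1 in 20 for normally spread values, a shape that FPKM need not have, and the genes tested are correlated. The rule was applied to FPKM, and no version on the log2 scale is given here. RAAS-blocked replicate 6 gave 14 of the 20 and untreated replicate 6 gave 3.

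Among the transcription factors, RAAS-blocked replicate 6 stood apart for Wt1 at 206 FPKM (next library 122) and for Tcf21 at 140 FPKM (next 84.2), and untreated replicate 6 for Lmx1b at 55.5 FPKM (next 36.3). Nphs1 reached 433 FPKM in untreated replicate 6. These 2 libraries are also the ones with the highest structural podocyte level in their groups.

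The genes nearest in pattern to Wt1 stood apart in RAAS-blocked replicate 6 as well: Cbara1 at 77.5, Zfp385b at 19.3, Vamp2 at 166 and Tmem150c at 219 FPKM, the last also in untreated replicate 6 at 263 FPKM. The same library set apart Fam3a at 27.2, Sh2d4a at 48.5 and Atp8b1 at 22.9 FPKM, from the genes nearest to Tcf21. From those nearest to Lmx1b and Foxc2 it set apart Hs3st6 at 114, Prr5 at 25.8, Kank1 at 40.7, Epn3 at 73.5 and Foxd2 at 28.9 FPKM. Since these genes were picked for following the members, their values in this library are not separate evidence.

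Outside the replicate 6 libraries, Wtap was high in RAAS-blocked replicate 4 at 45.6 FPKM, Basp1 was high in untreated replicate 3 at 18.5 FPKM, and Tead1 was low in RAAS-blocked replicate 3 at 13.2 FPKM.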

How the results depend on the processing

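The differences of the 6 transcription factors kept their sign and stayed outside the limma threshold in all 96 fits that left out 1 library and in all 78 under other settings. Under the other settings, the differences lay between -0.36 and -0.17 for Wt1, -0.28 and -0.08 for Tcf21, -0.47 and -0.34 for Lmx1b, 0.05 and 0.12 for Foxc1, -0.35 and -0.22 for Foxc2, and -0.33 and -0.22 for Dach1. Leaving out 1 library gave -0.44 to -0.14 for Wt1, -0.30 (without untreated replicate 0) to -0.04 for Tcf21, -0.57 to -0.29 for Lmx1b, 0.02 (without untreated replicate 7) to 0.15 for Foxc1, -0.42 to -0.19 for Foxc2, and -0.37 to -0.19 for Dach1. The count of genes called over the whole table, 2 in the main analysis and 814 by unadjusted p, was 0 with at least 1 FPKM required in all 16 libraries. It was 1 with upper-quartile scaling, with scaling to the sum over tested genes, with quantile normalization, with no trend and no robust step, with the proximal tubule covariate, with the replicate block and without both replicate 6 libraries. It was 11 with array weights and 8 with the structural podocyte level as covariate. Leaving out 1 library gave between 1 and 6, with 6 without RAAS-blocked replicate 4 and 4 without untreated replicate 8. Replicate numbers are shared by 7 libraries of each group. Same-numbered libraries correlated at -0.28 to 0.43, and 2 of 7, numbers 0 and 6, matched their own number best. Whether they share more than a number cannot be told from 7 such values. The replicate block left all 6 outside the threshold.

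The mean r of the 15 pairs was 0.14 with the structural podocyte level removed, 0.46 without both replicate 6 libraries, a setting chosen after seeing the data, and 0.54 to 0.75 when 1 library was left out. With the structural level removed, r turned negative for Wt1 with Tcf21 (-0.039), Tcf21 with Foxc1 (-0.37), Lmx1b with Foxc1 (-0.066), Lmx1b with Dach1 (-0.21) and Foxc1 with Foxc2 (-0.17). Tcf21 with Foxc1 was -0.085 without both replicate 6 libraries, and Lmx1b with Dach1 was -0.21 in the RAAS-blocked libraries alone. Every relation of the 6 genes with the structural level kept its sign and its adjusted permutation p under 0.05 in the 96 fits without 1 library and in the 12 under 2 other settings, a pseudocount of 0.1 and upper-quartile scaling.

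Differences near 0 changed sign, and the cause was not tested. Nphs1 was 0.0071 after quantile normalization and 0.045 with the structural level as a covariate. Ldb1 was 0.031 with array weights. Slc34a1, a proximal tubule transporter (85.8 ± 94.8 FPKM, SD, n = 9, and 64.1 ± 60.2 FPKM, SD, n = 7), was 0.39 with array weights and 0.27 without both replicate 6 libraries. Leaving out 1 library gave ranges of -0.60 to 0.35 for Slc34a1, -0.19 to 0.069 for Nphs1, -0.16 to 0.053 for Ldb2 and -0.069 to 0.0028 for Ldb1. For r with the proximal tubule level it gave -0.38 to 0.18 for Tcf21, -0.34 to 0.034 for Lmx1b, -0.30 to 0.16 for Foxc2 and -0.31 to 0.065 for Dach1. Without counts, the depth behind each value is unknown, and the number of libraries limits the precision.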

Other observations

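The genes next to each member on its chromosome, in the RefSeq gene order, were looked at after the values of the members had been seen. Beside Wt1, Wt1os (AI314831 in the expression table), its antisense neighbour, ran at 2.81 to 10.5 FPKM and followed Wt1 with r = 0.91, ranked 64th of all tested genes. Since strand is not given in the sources used here, reads of the 2 cannot be told apart where they overlap. Eif3m, a translation initiation factor subunit 2 genes from Wt1, ran at 140 to 369 FPKM and ranked 2nd for Wt1 with r = 0.97, whereas Rcn1, 2 genes away on the other side, had r = 0.15. Foxl1, next to Foxc2, had r = 0.86 with it and ranked 121st. Angptl2, 3 genes from Lmx1b, had r = 0.83, but the nearest neighbours Zbtb43 and Mvb12b had r of -0.34 and -0.52. Next to Dach1, Mzt1 had r = 0.71 while Bora and Dis3, the following genes, had 0.01 and 0.03. Next to Foxc1, Gmds had 0.73, while Wrnip1 and Foxq1, each 3 genes away, had 0.18 and -0.40. Around Tcf21, Eya4 had 0.55, Slc2a12 0.74, Tbpl1 -0.05 and Rps12 -0.11. These r values are descriptions over 16 libraries, and no comparison with genes elsewhere was tested.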
